A study of Mus musculus with 2 samples.

Results

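Transcripts of 10 genes that mark fibro-adipogenic progenitors, the PDGFRA-positive stromal cells between muscle fibres, were measured in gastrocnemius, the large calf muscle. The genes were Pdgfra, Dcn, Lum, Gsn, Smoc2, Dpt, Pi16, Mfap5, Cxcl14 and Ly6a. They were picked by name and taken by symbol from the gene tables of both libraries, and all 10 were found among 55536 genes. The study sequenced total RNA from muscle of female B6CASTF1/J mice, the F1 cross of C57BL/6J and CAST/EiJ, at 18 to 20 months. The labels give 1 group of 2 biological replicates, made from 300 ng of RNA apiece, with synthetic ERCC RNAs spiked in at known amounts. There was no treatment, no engineered allele and no younger group to compare, so the data allow a description of levels and of the spread between the 2 libraries. The libraries carry different tissue sample names but 1 donor identifier, so that they come from separate animals rests on the sample names alone.

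Fibro-adipogenic progenitors do not make muscle fibres. They secrete extracellular matrix and signals that support satellite cells after injury, and they can turn into adipocytes or into matrix-producing fibroblasts in damaged or aged muscle. PDGFRA, a receptor tyrosine kinase for platelet-derived growth factors, defines the population, and most other markers are secreted matrix proteins. Several markers are not exclusive. Decorin and lumican are also made in tendon, gelsolin also in muscle fibres, and Ly6a (Sca-1) also in endothelium. In bulk tissue, fewer cells of a type and less RNA per cell cannot be told apart.

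Expected counts of genes summed to 38654555 in replicate 1 and 43722892 in replicate 2. Of the muscle fibre markers, 8 of 8 were at or above 1 TPM (a level scaled by transcript length and by the library's total), with Acta1, the skeletal muscle actin, at 21825 and 23051 TPM. Between the libraries the fibre list had a median log2 ratio of 0.05, replicate 2 over replicate 1, and of -0.17 when scaled by spike-in totals. A count of 0 would allow 0.0776 and 0.0686 CPM, and members had from 176 to 19164 counts per library. Ratios of counts below are after TMM scaling, a scaling by the bulk of genes, unless another scaling is named. Their intervals cover counting error only, at 95%. With 1 library against 1 there is no replicate check of a ratio, so no p-value is given.

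Each of the 10 genes reached 1 TPM in replicate 1 and in replicate 2, by RSEM and by kallisto alike. The share of all genes that did so was not counted, so this count has no background. Lum, at 4.72 TPM in replicate 1, ranked only 6923 among 22015 nuclear protein-coding genes there. The summed level of the 10 genes was 474 TPM in replicate 1 and 455 TPM in replicate 2. Gsn and Dcn alone made up 78.3% and 73.6% of these sums. The other 8 summed to 103 and 120 TPM, so the small difference in the total and that in the remaining genes had opposite directions. The highest member, Gsn, stood 50.5-fold over the lowest, Lum, in replicate 1. In replicate 2 it stood 37.1-fold over the lowest there, Pdgfra. In order of mean level the genes ran Gsn, Dcn, Smoc2, Cxcl14, Dpt, Ly6a, Mfap5, Lum, Pi16 and Pdgfra. Of 9 neighbouring pairs in that order, 4 had ranges that did not overlap. These were Gsn over Dcn, Dcn over Smoc2, Smoc2 over Cxcl14, and Ly6a over Mfap5. The ranges of Cxcl14, Dpt and Ly6a overlapped each other. That of Lum overlapped those of Mfap5, Pi16 and Pdgfra, and those of Pi16 and Pdgfra overlapped, while both values of Mfap5 lay above those of Pi16 and Pdgfra. Kallisto levels were 1.15 to 1.81 times the RSEM levels. Nuclear protein-coding genes held 46.7% and 45.7% of all TPM in the RSEM tables but 70.6% and 65.2% in the kallisto tables. Mitochondrially encoded genes are not in these shares.

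**Figure D1:**
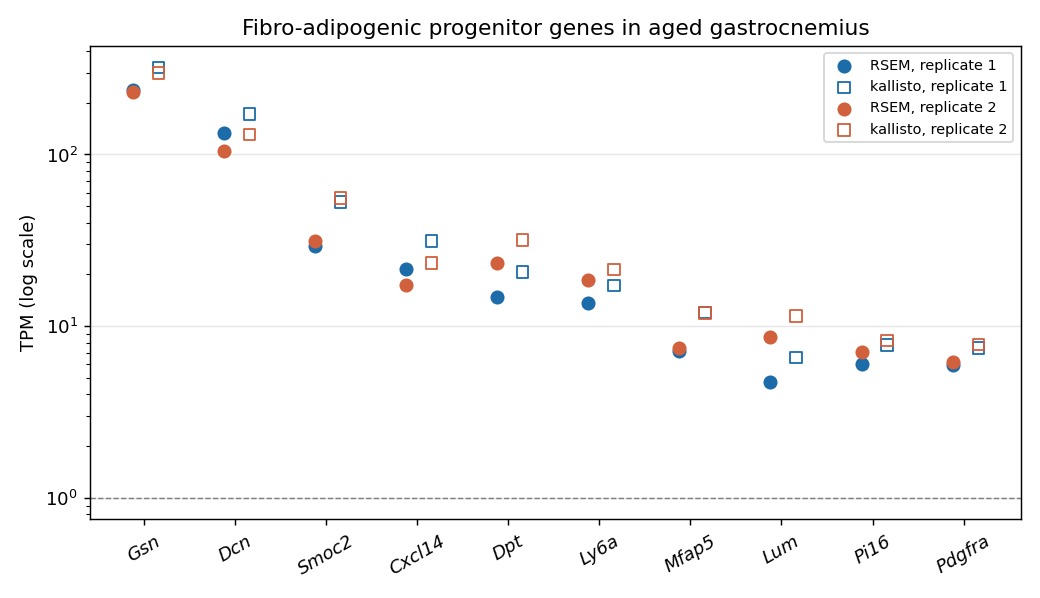
Level of each gene in TPM on a log scale, in replicate 1 (blue) and replicate 2 (orange), by RSEM (filled circles) and kallisto (open squares). All values lie above the dashed line at 1 TPM, and kallisto values lie above RSEM values for each gene in each library.

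The receptor itself was the lowest of the 10 by mean level. Pdgfra (ENSMUSG00000029231.15, chr5:75152292-75198215 on the plus strand, mm10) was at 5.92 TPM in replicate 1 and 6.21 TPM in replicate 2, a mean of 6.07 ± 0.205 TPM (SD, n = 2). Its counts were 890 and 971, giving a ratio of 1.07 with an interval from 0.975 to 1.17. It was the one member whose counting interval held 1 under TMM scaling. Of the wider platelet-derived growth factor list, Pdgfa, a main PDGFRA ligand, was at 10.35 and 8.22 TPM. Pdgfrb, the related receptor of mural cells, was at 4.92 and 4.06 TPM. Of the 6 ligands and receptors other than Pdgfra that were tested, 1 was above 0 and 5 were below 0, with a median log2 ratio of -0.09.

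Pdgfra also carried a truncated transcript at a visible share. Pdgfra-207, annotated as non-stop decay, has 9 exons where the full-length Pdgfra-201 has 23. It shares the ninth exon of Pdgfra-201 and runs 79 bases past that exon's end, into an intron of 1595 bases. Up to that exon lie 41.8% of the full-length coding bases. The last 20 shared bases and the 79 bases of extension (chr5:75175052-75175150, plus strand, mm10, from GENCODE M21) are shown because they are what tells this transcript from the others. Capitals mark the extension.
Pdgfra-207: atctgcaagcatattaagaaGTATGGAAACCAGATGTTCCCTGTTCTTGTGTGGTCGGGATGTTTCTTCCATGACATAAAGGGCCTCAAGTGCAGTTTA

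Of the 50-base words of Pdgfra-207, 79 of 1512 occur in no other annotated transcript, while Pdgfra-201 has only 14 such words of 6500. RSEM gave Pdgfra-207 17.1% of the gene's TPM in replicate 1 and 25.8% in replicate 2, from 42.9 and 76.6 expected counts. Kallisto gave it 15.4% and 23.2%, so both tools placed it higher in replicate 2. Pdgfra-202, which has another first exon, took 16.7% and 12.4% by RSEM but 38.3% and 13.8% by kallisto. Truncated PDGFRA made by intronic polyadenylation is known from these cells. Of polyadenylation signal sequences only AATAAA and ATTAAA were searched for, and the extension holds neither. It does hold the variant CATAAA, and other variants were not searched for. Whether Pdgfra-207 is such a form was not tested. In total RNA, reads of unspliced Pdgfra that cover these bases could also be assigned to it, and their share was not tested.

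Gsn, which encodes the actin-severing protein gelsolin, was the most abundant member. Gsn (ENSMUSG00000026879.14, chr2:35256380-35307892, plus strand) was at 238 TPM in replicate 1 and 230 TPM in replicate 2, a mean of 234 ± 5.72 TPM. It ranked 210th and 219th among 22015 nuclear protein-coding genes. With 17573 and 19164 counts, the TMM-scaled ratio was 1.07 with an interval from 1.05 to 1.09. The TPM was thus slightly lower in replicate 2 while this ratio was above 1. By spike-in totals the log2 ratio was -0.13, so the direction for Gsn depends on the measure. Gsn made up 50.3% and 50.6% of the summed TPM of the 10 genes.

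Gelsolin exists as a secreted plasma form and a cytoplasmic form, which come from different transcript starts. Gsn-201 begins at position 35282380 and its coding sequence opens with 147 bases (49 codons) that Gsn-205 lacks. Gsn-205 begins at position 35256380 and is translated from the start codon that the longer form holds inside. The coding starts are shown because these bases are where the 2 forms part. Capitals mark the start codons, and positions are those of mm10 with GENCODE M21 models, from chr2:35282464-35283943 (spliced) for Gsn-201 and chr2:35283914-35283943 for Gsn-205.
Gsn-201: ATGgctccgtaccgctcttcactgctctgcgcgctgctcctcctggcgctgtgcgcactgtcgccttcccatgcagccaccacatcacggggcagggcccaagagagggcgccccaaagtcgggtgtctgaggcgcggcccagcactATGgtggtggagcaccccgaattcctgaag
Gsn-205: ATGgtggtggagcaccccgaattcctgaag

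The deposited tools did not give the same division between these forms. RSEM assigned 98.8% and 98.6% of Gsn TPM to Gsn-201, whereas kallisto assigned it 38.4% and 33.5%. Gsn-205 took 0.843% and 0.604% by RSEM but 45.8% and 47.1% by kallisto. Gsn-207, another coding model that starts beside Gsn-205, was at 0 in both libraries by RSEM and at 15.6% and 19.0% by kallisto. Within each tool the libraries gave similar shares, and the gap lay between the tools. Gsn-201 has 135 words of 50 bases found in no other transcript, and Gsn-205 has 50, so both have sequence of their own. Which tool is nearer to the tissue was not tested, and the gelsolin level here is therefore a level of the gene, not of the secreted form.

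RefSeq promoter windows of 300 bases (250 before to 50 after a start, GRCm38.p6) were found for 5 of 10 members, in 7 windows. Of the 3 Gsn windows, 2 have a RefSeq start within 50 bases of the start of an annotated transcript. They are shown from 120 bases before to 30 bases after the RefSeq start, since the tools differ on which start was in use. Capitals mark GGGCGG or its reverse complement, the GC box.
Gsn distal start, chr2:35256239-35256388: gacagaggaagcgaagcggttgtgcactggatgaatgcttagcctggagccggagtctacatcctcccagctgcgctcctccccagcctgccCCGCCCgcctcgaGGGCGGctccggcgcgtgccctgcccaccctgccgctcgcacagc
Gsn proximal start, chr2:35282260-35282409: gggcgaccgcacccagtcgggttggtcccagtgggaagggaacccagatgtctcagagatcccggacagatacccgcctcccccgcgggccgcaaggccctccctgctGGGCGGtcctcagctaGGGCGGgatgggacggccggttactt

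Both starts hold GGGCGG on one strand or the other, as do 35.9% of 32544 RefSeq windows of that length. TATAAA, in 13.6% of windows, is in neither, and among the 7 windows it occurs in that of Dpt alone. CCAAT, in 37.4% of windows, is in the 300 bases of the proximal start but upstream of the stretch shown. Transcripts that begin within 50 bases of the distal RefSeq start held 0.843% and 0.773% of Gsn TPM by RSEM and 61.4% and 66.1% by kallisto.

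**Figure D2:**
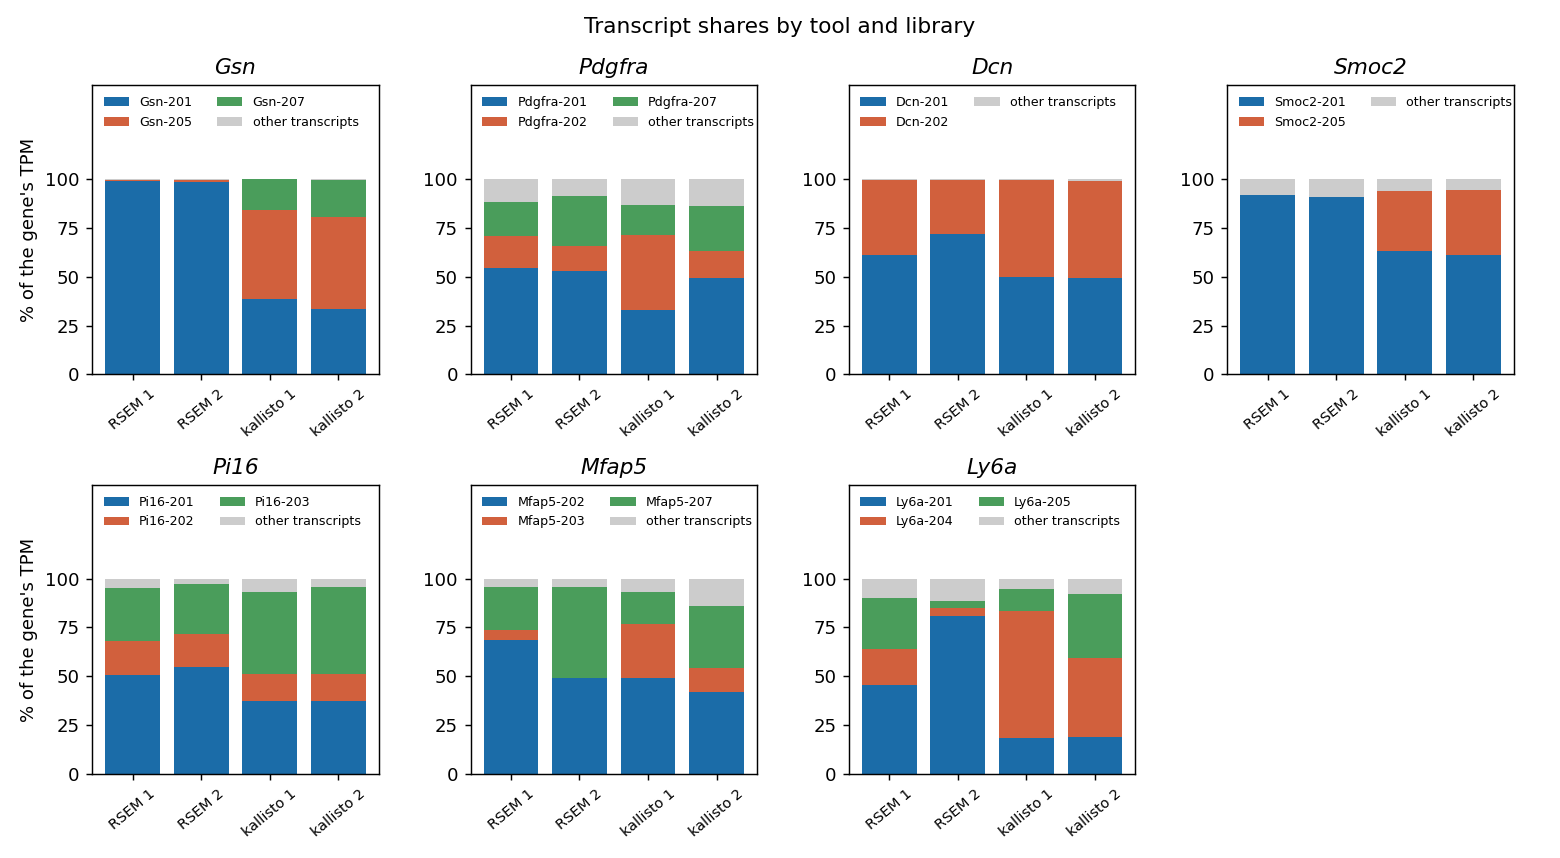
Share of each gene's TPM by transcript, in percent, for RSEM and kallisto in replicates 1 and 2, with transcripts under 10% in all 4 columns joined in grey. For Gsn the RSEM columns are almost wholly Gsn-201, while in the kallisto columns Gsn-205 is the largest piece. Lum, Dpt and Cxcl14, each nearly or wholly of 1 transcript, are not drawn.

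The 2 proteoglycans differed in direction between the libraries. Dcn encodes decorin, a small leucine-rich proteoglycan that binds collagen fibrils and holds growth factors in the matrix. Dcn (ENSMUSG00000019929.16, chr10:97479609-97518143, plus strand) was at 133 TPM in replicate 1 and 105 TPM in replicate 2, a mean of 119 ± 19.8 TPM. Replicate 1 was the higher one, and the count ratio of 0.878 had an interval from 0.847 to 0.910. Lum encodes lumican, a related keratan sulfate proteoglycan that limits fibril width. Lum (ENSMUSG00000036446.5, chr10:97565128-97572703, plus strand) was at 4.72 TPM in replicate 1 and 8.62 TPM in replicate 2, from 321 and 664 counts. The ratio of 2.02 had an interval from 1.77 to 2.32, the largest among the 10 genes in these libraries, and its lower bound is under 2. Dcn ends 46984 bases before Lum begins, on the same strand. The level of Dcn was 28.1 times that of Lum in replicate 1 and 12.1 times in replicate 2.

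Other small leucine-rich proteoglycans were spread in both directions. Of 15 genes on that list, 10 were tested, with 4 above and 6 below 0 and a median log2 ratio of -0.19. Bgn, which encodes biglycan, the closest relative of decorin, was at 16.4 and 19.2 TPM. Fmod, encoding fibromodulin of tendon, was at 30.6 and 18.0 TPM. Tendon markers were lower in replicate 2 together with Dcn, with 6 of 6 tested below 0, a median log2 ratio of -0.56 and summed levels of 83.7 and 53.3 TPM. Fmod stands on both lists. The part of tendon RNA in the Dcn difference was not tested.

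For Dcn the tools differed again on transcripts. Dcn-201 and Dcn-202 are each 1758 bases and differ in their first exons. RSEM gave Dcn-201 61.2% and 71.8% and Dcn-202 38.0% and 27.8%. Kallisto gave both the same share, 49.7% each in replicate 1 and 49.5% each in replicate 2. Lum has a single annotated transcript, so its level does not depend on such a division.

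Smoc2 and Dpt encode secreted proteins that bind cells and matrix. Smoc2, a calcium-binding protein of the SPARC family, was at 29.2 TPM in replicate 1 and 31.5 TPM in replicate 2, a mean of 30.3 ± 1.67 TPM (ENSMUSG00000023886.10, chr17:14279506-14404790, plus strand). Its counts of 2290 and 2783 gave a ratio of 1.19 with an interval from 1.13 to 1.26. The level of Smoc2 relative to Pdgfra was nearly the same in both libraries, at 4.92 and 5.07. Kallisto set Smoc2 at 52.7 and 55.6 TPM, 1.81 and 1.77 times the RSEM level, the widest gap between tools among the 10 genes. In kallisto, Smoc2-205, a noncoding processed transcript of 572 bases, took 30.8% and 33.6% of the gene, while RSEM listed it at 0 in both libraries. Smoc2-201, the main coding transcript, took 91.8% and 90.8% by RSEM. Of the SPARC family, 5 genes were tested, with 3 above and 2 below 0 and a median log2 ratio of 0.24. Sparc, the founding member, was at 59.0 and 62.0 TPM.

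Dpt encodes dermatopontin, which binds decorin and speeds collagen fibril formation. Dpt (ENSMUSG00000026574.5, chr1:164796644-164824266, plus strand) was at 14.9 TPM in replicate 1 and 23.2 TPM in replicate 2, a mean of 19.0 ± 5.92 TPM. Replicate 2 was higher, with counts of 699 and 1237 and a ratio of 1.73 with an interval from 1.58 to 1.90. Dpt and Cxcl14 changed places between the libraries, since Cxcl14 was 1.45 times Dpt in replicate 1 and 0.745 times in replicate 2. Gm32569, an antisense gene that overlaps Dpt, was at 0.07 and 0.32 TPM, and overlapping genes of the other members were at no more than 0.02 TPM.

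Pi16 and Mfap5 are markers of a stromal subset found around vessels and in fascia. Pi16, a secreted protease inhibitor-like protein of the CAP family, was at 6.01 TPM in replicate 1 and 7.09 TPM in replicate 2, a mean of 6.55 ± 0.764 TPM (ENSMUSG00000024011.17, chr17:29317680-29330593, plus strand). Its counts of 367 and 478 gave a ratio of 1.27 with an interval from 1.11 to 1.47. A retained-intron transcript, Pi16-203, held 27.1% and 25.6% of Pi16 TPM by RSEM and 41.6% and 44.4% by kallisto. In total RNA, reads of unspliced Pi16 could also be assigned to Pi16-203, and their share was not tested. A coding transcript, Pi16-201, held 50.9% and 54.7% by RSEM and 37.5% and 37.6% by kallisto, and no 50-base word of it is its own. Pi16-202, also coding, held 17.3% and 16.8% by RSEM. Shares for Pi16 were thus steadier between libraries than between tools. Of 8 other CAP genes, 3 were tested, 2 above and 1 below 0, and Crispld2 was the highest at 4.81 and 4.89 TPM.

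Mfap5 encodes a microfibril-associated glycoprotein that binds fibrillin. Mfap5 (ENSMUSG00000030116.14, chr6:122505845-122529290, plus strand) was at 7.12 TPM in replicate 1 and 7.48 TPM in replicate 2, a mean of 7.30 ± 0.255 TPM. Its counts, 176 and 264, gave a ratio of 1.46 with an interval from 1.21 to 1.79. The level per length was thus nearly even while the count ratio was not, and the effective length that RSEM used was 854 bases in replicate 1 and 1077 in replicate 2. Beside this, the longer Mfap5-207 (1506 bases) took 22.1% in replicate 1 and 46.3% in replicate 2, and the shorter Mfap5-202 (748 bases) took 68.8% and 49.3%. Kallisto gave Mfap5-207 16.8% and 31.6%, also higher in replicate 2. Of 16 tested genes of microfibrils and elastic fibres, 10 were above and 6 below 0, with a median log2 ratio of 0.09. By spike-in totals 6 of the 16 were above 0 and the median was -0.13. Fbn1, encoding the fibrillin to which these proteins bind, was at 7.66 and 12.2 TPM and is named here for its role, after its values were seen.

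Cxcl14, a chemokine, was lower in replicate 2. Cxcl14 (ENSMUSG00000021508.11, chr13:56288643-56296551, minus strand) was at 21.6 TPM in replicate 1 and 17.3 TPM in replicate 2, a mean of 19.4 ± 3.03 TPM. Its counts of 1079 and 980 gave a ratio of 0.890 with an interval from 0.815 to 0.971. Nearly all of it was Cxcl14-201, at 99.4% and 99.9% by RSEM. Of 12 other CXC chemokines, 2 were tested and both were below 0, and 4 had 0 counts in both libraries. Cxcl12, the ligand of CXCR4 made by stromal cells, was at 21.2 and 17.3 TPM, near the level of Cxcl14 in each library.

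Ly6a encodes Sca-1, a lipid-anchored surface protein used to sort these cells. Ly6a (ENSMUSG00000075602.10, chr15:74994877-74998031, minus strand) was at 13.6 TPM in replicate 1 and 18.6 TPM in replicate 2, a mean of 16.1 ± 3.52 TPM. Replicate 2 was higher, and the ratio of 1.40 had an interval from 1.20 to 1.63. Its expected counts, 295.84 and 422.83, were the only ones among the members that were not whole, so reads were shared with other genes and the value is uncertain by that share. The coding bases of Ly6a-201 were 86.3% identical to those of Ly6i-201 and 81.8% identical to those of Ly6c1-201. Of its 50-base words, 8.05% also occur in other genes, among them Ly6i, Ly6c1 and Ly6c2. The first 60 coding bases of Ly6a-201 (chr15:74997545-74997604, minus strand) and Ly6c1-201 (chr15:75048452-75048511, minus strand) are shown to let the likeness be seen. Capitals mark the bases that differ.
Ly6a-201: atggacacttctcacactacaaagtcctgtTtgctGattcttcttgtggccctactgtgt
Ly6c1-201: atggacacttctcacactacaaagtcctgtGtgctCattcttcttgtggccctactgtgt

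Over these 60 bases the genes differ at 2. Ly6c1, which is made by endothelium and some stromal cells, was at 26.8 and 37.0 TPM, also higher in replicate 2. In the Ly6 family, 5 of 6 tested genes lay above 0 (median 0.73), and Gpihbp1, an endothelial lipase anchor, was at 9.25 and 19.0 TPM. Of the 8 endothelial markers, 2 were above and 6 below 0, with a median log2 ratio of -0.44, all 8 at or above 1 TPM, and summed levels of 75.7 and 58.5 TPM. Their part in the Ly6a difference was not tested. Ly6a-201 took 45.4% and 81.1% by RSEM but 18.5% and 18.8% by kallisto, and no 50-base word of it is its own.

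By count ratio, 8 of 10 genes were above 0 in log2 ratio (replicate 2 over replicate 1 after TMM scaling, a scaling by the bulk of genes), beside 49.8% of 12969 tested genes. Dcn and Cxcl14 were below. The median log2 ratio was 0.30 over the 10 genes and -0.00 over all tested genes. Lum was the 1 gene past 2-fold, beside 4.64% of tested genes, and it was under 2-fold when scaled by total counts (0.87) or by spike-in totals (0.79). Under TMM scaling the counting interval left out 1 for 9 of 10 genes, 7 above and 2 below, beside 46.4% of tested genes. Intervals were not computed under the other scalings. An interval narrows with the count, and the highest counts give narrow intervals for ratios near 1, as for Gsn. Scaling by spike-in totals lowered the median of all tested genes by 0.22. On that scale the median of the 10 genes was 0.079, and under total counts it was 0.15. By spike-in totals 6 of 10 genes were above 0, and Gsn and Pdgfra were at -0.13 and -0.13. The median of all tested genes on that scale was -0.22. Their share above 0 was counted under TMM only, so the 49.8% is not its background.

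**Figure D3:**
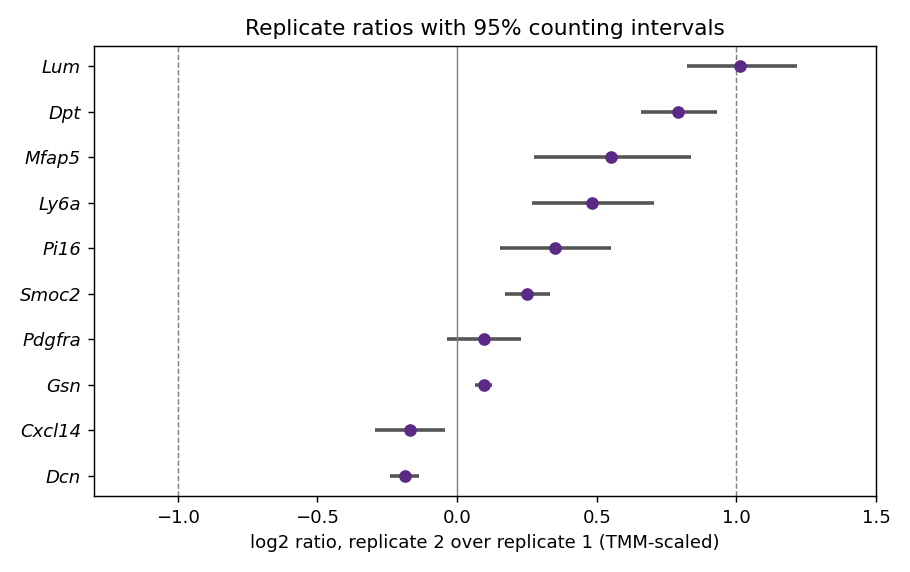
Log2 ratio of replicate 2 over replicate 1 after TMM scaling (points) with 95% counting intervals (bars), by gene, with dashed lines at 2-fold. Lum lies at 1.01 and Dpt at 0.79, while Dcn and Cxcl14 lie at -0.19 and -0.17.

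Further genes of these cells and of fibroblasts did not share 1 direction. Of 34 such genes 31 were tested, 19 above and 12 below 0, with a median log2 ratio of 0.08. By spike-in totals 13 of the 31 were above 0 and the median was -0.14, so the sign of this median depends on the scaling. The 3 genes of highest mean level on this list were Ly6c1, Cd55 and Tcf4. Cd55 was at 37.5 and 23.8 TPM and Tcf4 at 31.1 and 19.2 TPM, both lower in replicate 2, while Ly6c1 was higher. Tcf4 here is the gene of that symbol, not Tcf7l2, a separate listed gene whose protein is also called TCF4. Tcf7l2 was at 4.92 and 3.04 TPM and is named to keep the genes apart, after its values were seen. The 3 genes at least 2-fold higher in replicate 2 were Col3a1, Col1a1 and Col1a2, which encode chains of the type III and type I collagens of connective tissue. Col3a1 was at 12.5 and 37.3 TPM, Col1a1 at 9.69 and 28.3 TPM, and Col1a2 at 13.0 and 29.8 TPM. Their log2 ratios of 1.87, 1.70 and 1.36 were larger than that of any member. Hic1, a transcription factor of quiescent mesenchymal progenitors, was at 2.70 and 0.77 TPM, the 1 listed gene lower by over 2-fold, and is named after its values were seen. Cd34, a surface marker of the progenitors, was at 12.2 and 11.6 TPM, close in the 2 libraries as Pdgfra was, and was likewise picked after its values were seen.

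Markers of other cell types differed between the libraries beside these genes. Of 7 tested adipocyte markers, 7 lay above 0 (median 0.43), and their summed levels were 113 TPM in replicate 1 and 128 TPM in replicate 2. Mural cell markers had a median of -0.07, macrophage markers 0.12, Schwann cell markers -0.60 and satellite cell markers -0.65. By spike-in totals the macrophage median was -0.10 and the adipocyte median 0.21. In the satellite list 1 of 7 tested was above 0, namely Sdc4, the highest gene of that list, at 20.5 and 27.4 TPM. Myod1, a myogenic regulator, was at 19.9 and 6.51 TPM. No marker on these lists had 0 counts in both libraries. The part of these cell types in the differences of the 10 genes was not tested.

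**Figure D4:**
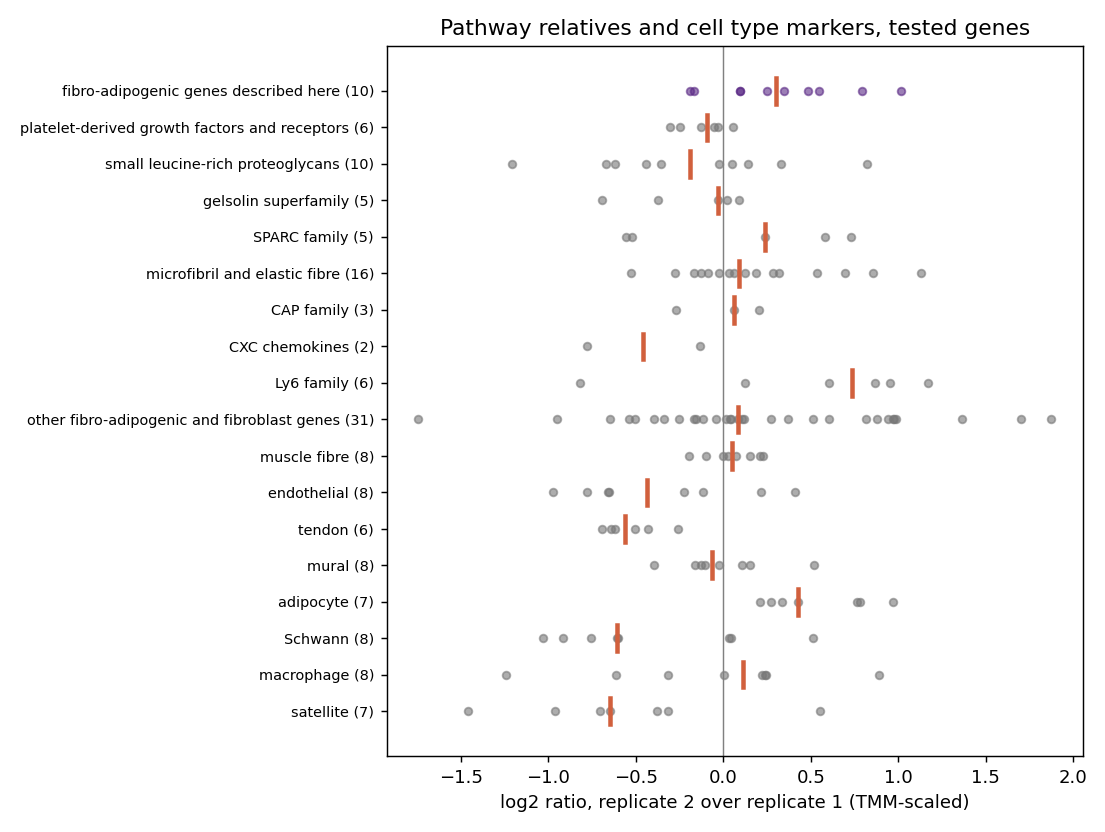
Log2 ratio of replicate 2 over replicate 1 for the tested genes of each list (points, number tested in brackets), with list medians as orange bars. The 10 fibro-adipogenic genes run from -0.19 to 1.01 with a median of 0.30, and tendon genes all lie below 0.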

How the data were processed

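Total RNA libraries of 2 tissue samples in 1 group were analysed. Expected counts and TPM per gene and transcript were deposited by the authors in tables with RSEM column names, per the file headers. Estimated counts and TPM per transcript came from the authors' kallisto tables, and were summed per gene. Notes deposited beside each library name mm10 as the build and GENCODE M21 as the annotation. The aligner and tool versions were not given in the sources used here. Since mm10 is a C57BL/6J genome, reads of CAST alleles were assigned on it too, and the effect was not tested. The rows of spike-ins, phiX and tRNA (0.424% and 0.446% of counts) stayed out of library sizes and ratios.

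Expected counts were rounded to whole numbers. Log2 ratios came from edgeR 4.0.16 in R 4.3.3 (TMM, prior count 2) over genes whose 2 counts sum to 50 or more, with size factors of DESeq2 1.42.0 tried in place of TMM. Fold intervals are exact conditional binomial intervals at 95%. They cover counting error only, because there is 1 library on each side. Reads carry no molecular identifiers, so duplicate reads count as separate ones and the intervals may be too narrow. The SD measures only the spread between these samples. The steps were tested on simulated data. Sequences came from GENCODE M21 transcripts and RefSeq promoters (GRCm38.p6), read with Python 3.11.15, and identities came from global alignment in Biopython 1.88.

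The naming rule took the 10 members and the 3 highest genes of each list. It also took listed genes at least 2-fold apart with a mean of at least 5 TPM. Not every gene that met the rule is named above, and no rule set which were. Fbn1, Hic1, Cd34 and Tcf7l2 lie outside it. Transcripts named hold at least 10% of a gene in a library by either tool. The members and lists were chosen with earlier results of these data known. Other scalings, count minimums, prior counts, TPM estimates and single libraries were tried as alternatives.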

Additional observations from a re-analysis of the deposited data

How the results depend on the processing

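Of 34 alternatives, 26 left the summary values of the 10 genes within set limits, 8 moved one and none reversed one. The limits were wide for some values, since 6 genes above 0 in place of 8 still counted as unchanged. Some alternatives could not change a value. Leaving out a library could not lower the count of genes at 1 TPM, since the lowest value of any was 4.72 TPM. The median level of the 10 genes, 16.1 TPM, was 20.7 TPM by kallisto and 34.9 TPM when rescaled over nuclear protein-coding genes. Leaving out 1 library at a time gave 14.2 to 17.9 TPM. The median log2 ratio of 0.30 was 0.15 under total counts and 0.079 under spike-in totals, which lowered the median of all tested genes by 0.15 and 0.22. The count of genes past 2-fold, 1, was 0 under total counts, 0 under spike-in totals, 0 when the whole counting interval had to pass, and 2 at 1.5-fold (Lum and Dpt). A summed count of at least 500 left out Mfap5. No paired analysis was possible because there is 1 group. Under both total counts and spike-in totals 6 of 10 genes were above 0, with Gsn and Pdgfra then below. The share of all tested genes above 0 was not counted under these scalings. A single library gives no ratio, so no ratio was computed with either left out. Depth limits Mfap5 most, with 176 and 264 counts. Transcript shares depend on the tool, and the cause was not tested.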
